A study of Mus musculus with 9 samples.

Results

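The transforming growth factor beta (TGF beta) system was followed in mouse hearts through 10 genes, chosen by name. They are the ligands Tgfb1, Tgfb2 and Tgfb3, the receptors Tgfbr1, Tgfbr2 and Tgfbr3, and the latent TGF beta binding proteins Ltbp1, Ltbp2, Ltbp3 and Ltbp4. All 10 were among the 23747 genes of the tables. Hearts of 9 C57BL/6 mice, supplied at 8 weeks of age by the study's methods, were examined with sNuc-seq, the sequencing of RNA from single nuclei in droplets. Each nucleus has its own barcode, and each RNA molecule that was caught is counted once through a unique molecular identifier (UMI). The 3 sham mice were given vehicle by gavage for 7 days and then operated on without ligation. The 3 I/R mice were given vehicle for 7 days, and the left anterior descending coronary artery was then tied for 30 min and reopened for 24 h (ischemia-reperfusion). The 3 SBP mice underwent the same ischemia-reperfusion after 7 days of Shexiang Baoxin Pill, a traditional Chinese medicine labelled MUSKARDIA. No group received the drug without injury, and 1 time point was sampled, so the values describe the first day after reperfusion. Per the study, tissue was taken below the site of ligation, not from the whole organ. The comparisons asked what injury did to the family in each cell type, and what drug pre-treatment did to injured hearts.

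TGF beta is made as a precursor that stays bound to its own cleaved propeptide and cannot reach a receptor in that form. Latent TGF beta binding proteins join this latent complex, hold it in the extracellular matrix next to fibrillin and elastic fibers, and so set where the ligand is stored. Integrins, thrombospondin and proteases release the ligand, which binds TGFBR2, recruits TGFBR1 and leads to phosphorylation of SMAD proteins. In the heart the pathway is best known for turning fibroblasts into matrix-producing cells after injury, and it also acts on endothelium and immune cells.

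The 9 samples held 49171 nuclei, with 4576 to 6418 nuclei and 10329520 to 18205985 UMIs per sample. The study gives a larger number of nuclei, and the others were not analysed here. A median nucleus held between 1540 and 2031 UMIs. Clusters were named from marker genes, and each name stands for nuclei that resemble the type. Fibroblasts numbered 14129 nuclei, endothelial cells 13446, cardiomyocytes 10550 and myeloid cells 9564. The smaller types were T cells with 772 nuclei, B cells with 339, smooth muscle cells and pericytes, as 1 type, with 184 and Schwann cells with 102. No mouse had 20 Schwann nuclei, so that type was given no level. Any 2 libraries shared between 4 and 14 barcodes. Cardiomyocyte markers were detected in the other types and moved with injury. Their summed level in myeloid nuclei lay between 5772 and 7146 CPM (UMIs scaled to a common library size) in sham mice and between 1742 and 2670 in I/R mice, and 6 of 6 tested markers were called lower there and in fibroblasts, against 5 of 6 in endothelial cells.

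Over all nuclei the members were counted at very different depths. Tgfbr3 had 56182 UMIs, Ltbp1 35303, Tgfbr1 22937, Tgfbr2 22755, Ltbp4 14958, Tgfb2 8735, Tgfb1 6339, Ltbp3 5025, Ltbp2 3164 and Tgfb3 1219. Gene positions are given on GRCm38 from the GENCODE annotation. The ligand genes lie on chr7:25687002-25705077 (Tgfb1), chr1:186622792-186705989 (Tgfb2) and chr12:86056745-86079041 (Tgfb3). The receptor genes lie on chr4:47353222-47414931 (Tgfbr1), chr9:116084293-116175360 (Tgfbr2) and chr5:107106570-107289629 (Tgfbr3). The latency genes lie on chr17:75005568-75392512 (Ltbp1), chr12:84783212-84876532 (Ltbp2), chr19:5740904-5758532 (Ltbp3) and chr7:27305136-27337692 (Ltbp4). Genes on the opposite strand that are also listed in the tables overlap some of them, among these Gm29491 for Tgfb2, Ttll5 for Tgfb3 and D030025P21Rik for Ltbp2. Whether counting used strand is not given in the sources used here, so reads of these pairs may not be separated.

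Ltbp2 and Ltbp4 were the members with a change in fibroblasts, in opposite directions, and their proximal promoters are shown for that reason. Sequences are from RefSeq on GRCm38.p6, both on the minus strand, each 250 bases long and ending just before a RefSeq start site. The Ltbp2 window is chr12:84876492-84876741. For Ltbp4 the most upstream of 3 annotated windows is shown, chr7:27337613-27337862. Both windows overlap the gene ends of the GENCODE annotation, so part of each is transcribed in that annotation. Capitals mark the letters CAGAC, a core that SMAD proteins can bind, and GGGCGG, a GC box, on either strand.
Ltbp2: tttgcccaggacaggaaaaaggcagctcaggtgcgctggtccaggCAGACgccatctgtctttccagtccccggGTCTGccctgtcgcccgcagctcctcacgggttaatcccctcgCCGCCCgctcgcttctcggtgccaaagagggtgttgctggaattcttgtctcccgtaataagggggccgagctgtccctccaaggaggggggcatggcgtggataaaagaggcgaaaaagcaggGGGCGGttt
Ltbp4: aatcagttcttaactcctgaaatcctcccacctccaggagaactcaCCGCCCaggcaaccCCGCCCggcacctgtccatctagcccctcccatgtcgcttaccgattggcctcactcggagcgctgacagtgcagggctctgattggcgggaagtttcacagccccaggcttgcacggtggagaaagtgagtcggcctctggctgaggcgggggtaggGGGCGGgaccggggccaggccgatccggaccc
The Ltbp2 window held CAGAC at 205 and 176 bases before the start and GC boxes at 133 and 9 bases before it. The Ltbp4 window held GC boxes at 204, 190 and 32 bases before the start and no CAGAC. Among 32851 promoter windows of the same length, 42.2% held CAGAC, 32.7% GGGCGG, 6.75% the AP-1 letters TGANTCA and 12.4% TATAAA, all counted on both strands. GC content was 61.6% for Ltbp2 and 64.4% for Ltbp4, against a median of 52.4% over all windows. The motif letters are common, and a match describes a sequence and not a bound site. RefSeq windows were found for 8 of the 10 members, not for Tgfb3 and Tgfbr3.

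Where each member was transcribed is given in CPM over the UMIs of a mouse and cell type, as mean ± SD over all mice with at least 20 nuclei of that type. Sample size was 9 mice for each type except B cells (n = 7) and smooth muscle cells with pericytes (n = 4). These levels describe the cell types and were not tested, since the types were found from the same nuclei, and levels were not compared between genes. Neighbours in an order overlapped in their ranges over mice unless a gap is stated.

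Tgfb1, a ligand made by many immune cells, had its highest means in myeloid cells at 133 ± 20.01 CPM and B cells at 132 ± 51.5. T cells followed at 95.4 ± 22.9, endothelial cells at 80.9 ± 13.2, smooth muscle cells with pericytes at 51.2 ± 39.6 and fibroblasts at 43.0 ± 11.9. Cardiomyocytes came last at 9.73 ± 2.65, and all 9 cardiomyocyte values lay below all 9 fibroblast values. Tgfb2 had another order, led by fibroblasts at 147 ± 47.2 CPM. Endothelial cells stood at 60.9 ± 22.7, smooth muscle cells with pericytes at 58.7 ± 36.0 (117.6 pooled over all mice, from 147 UMIs, against 62.3 in endothelial cells), cardiomyocytes at 38.5 ± 19.8, T cells at 20.7 ± 30.4, B cells at 15.7 ± 20.8 and myeloid cells at 12.9 ± 3.71. Myeloid cells were thus last for Tgfb2 and near the top for Tgfb1, where B cells stood above them when pooled over all mice (147 against 128 CPM) and in sham mice (178 against 147). Tgfb3 was the least counted member and reached 25.6 ± 5.69 CPM in fibroblasts, 12.8 ± 3.96 in smooth muscle cells with pericytes and 9.07 ± 2.33 in endothelial cells. It was at 5.47 ± 7.61 in T cells, 3.42 ± 3.02 in myeloid cells and 1.68 ± 0.892 in cardiomyocytes. The fibroblast range lay above that of smooth muscle cells with pericytes, yet pooled over all mice the latter reached 34.4 CPM from 43 UMIs, against 25.7 in fibroblasts. B cells held 0 Tgfb3 UMIs among 373880, which allows up to 8.02 CPM by counting error alone.

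Tgfbr1, the type I kinase receptor, was led by myeloid cells at 401 ± 119 CPM and fibroblasts at 257 ± 48.4. B cells stood at 196 ± 103, T cells at 177 ± 40.7, endothelial cells at 140 ± 12.9, and smooth muscle cells with pericytes at 135 ± 25.9. Cardiomyocytes were lowest at 61.9 ± 11.1, without overlap with any other type's range except that of B cells. Tgfbr2, the type II receptor that binds the ligand first, had its highest means over all mice in lymphocytes, with B cells at 479 ± 175 CPM (lowest 237, median 438, highest 750) and T cells at 344 ± 85.8. The order differed by group, since in sham mice myeloid cells led at 424, against 337 in B cells and 326 in T cells. Over all mice, myeloid cells stood at 307 ± 102, fibroblasts at 285 ± 127, endothelial cells at 218 ± 61.6, and smooth muscle cells with pericytes at 217 ± 59.4. The 9 cardiomyocyte values of Tgfbr2, at 50.2 ± 9.27, lay below every value in these other types. Tgfbr3, or betaglycan, a co-receptor that presents TGF beta 2 to TGFBR2, had its highest level in fibroblasts at 880 ± 157 CPM and smooth muscle cells with pericytes at 676 ± 231. Both lay above endothelial cells at 318 ± 50.5 and cardiomyocytes at 317 ± 64.0, and T cells at 147 ± 85.2, B cells at 108 ± 52.2 and myeloid cells at 69.4 ± 23.2 followed. Cardiomyocytes therefore held little of both kinase receptors beside the other types and a middle level of the co-receptor.

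Over all mice fibroblasts had the highest mean level of all 4 latency genes, although for Ltbp4 endothelial cells stood higher in I/R mice (163 against 134 CPM) and pooled over mice (254 against 251). Ltbp1, which carries latent TGF beta into fibronectin and fibrillin matrix, stood at 483 ± 69.1 CPM in fibroblasts and 467 ± 150 in smooth muscle cells with pericytes. Endothelial cells followed at 276 ± 66.3, cardiomyocytes at 212 ± 96.2, T cells at 95.3 ± 37.1, B cells at 90.6 ± 27.0 and myeloid cells at 49.3 ± 23.6. Ltbp2, which binds fibrillin and is known not to bind latent TGF beta itself, was at 84.3 ± 62.7 CPM in fibroblasts, with a range from 6.92 to 164 over mice. In B cells it averaged 4.87 ± 12.9 from a single UMI, and in endothelial cells 4.76 ± 3.74, myeloid cells 3.41 ± 2.69, smooth muscle cells with pericytes 3.15 ± 6.30, cardiomyocytes 1.66 ± 1.45 and T cells 0.675 ± 2.02. Ltbp3, a carrier best known from bone and teeth, stood at 74.1 ± 18.6 CPM in fibroblasts, 48.4 ± 12.6 in endothelial cells, 38.3 ± 9.06 in smooth muscle cells with pericytes and 23.3 ± 8.03 in cardiomyocytes. T cells had 14.9 ± 16.4, myeloid cells 11.2 ± 4.53 and B cells 2.84 ± 4.85. Ltbp4, which also guides elastic fiber assembly, was near equal in fibroblasts at 270 ± 141 CPM, smooth muscle cells with pericytes at 260 ± 134 and endothelial cells at 252 ± 102. These 3 types stood above B cells at 39.8 ± 15.003, T cells at 37.6 ± 23.3, myeloid cells at 27.0 ± 11.1 and cardiomyocytes at 12.0 ± 4.72.

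**Figure D1:**
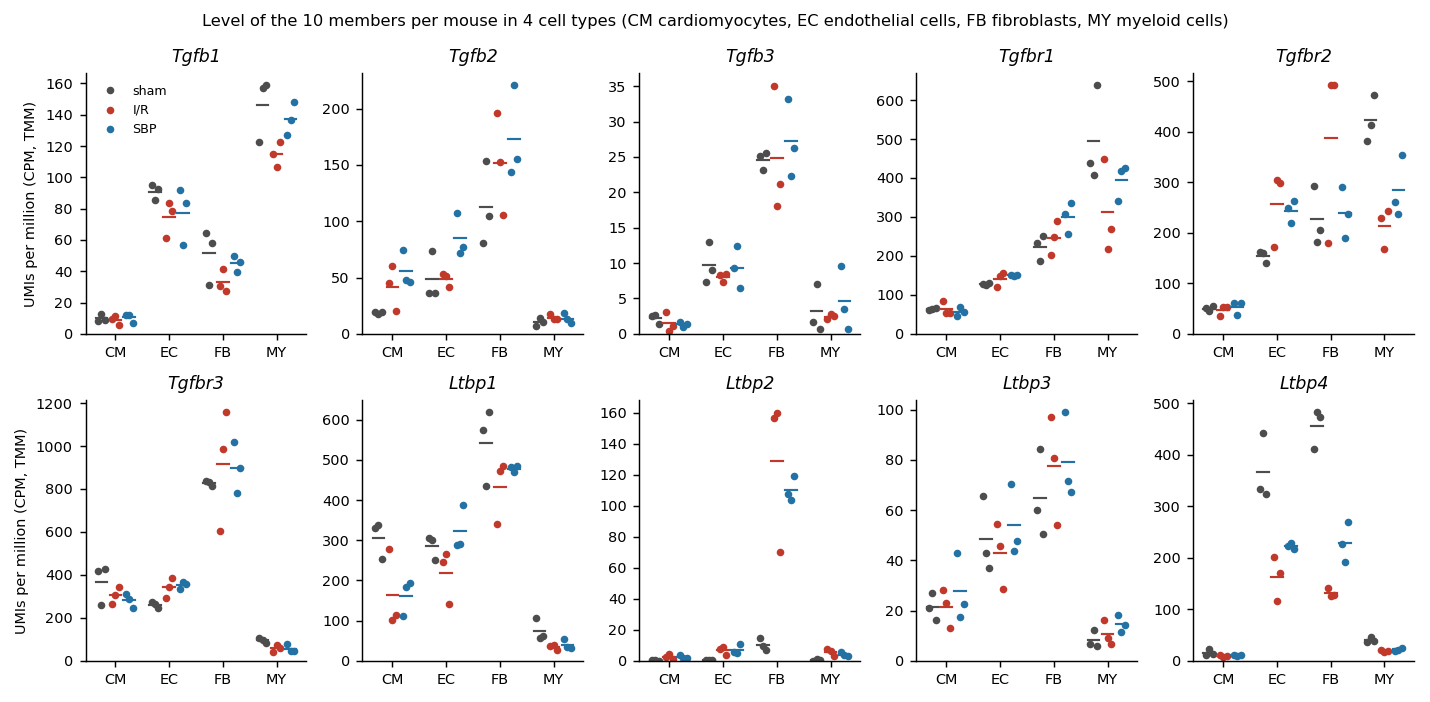
CPM (UMIs scaled to a common library size with TMM factors, linear axis from 0) of each of the 10 members in cardiomyocytes (CM), endothelial cells (EC), fibroblasts (FB) and myeloid cells (MY). Points are single mice, 3 per group, and horizontal lines are group means. Ltbp2 in fibroblasts lay between 7.24 and 14.8 in sham mice and between 69.9 and 160 in I/R mice, and Ltbp4 in fibroblasts lay between 412 and 482 in sham mice and between 125 and 141 in I/R mice.

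Within the main types, members also marked subtypes, described here by mean CPM over mice with at least 20 nuclei of a cluster. Lymphatic endothelium, led by Reln, held Tgfb3 at 39.9 CPM, against 2.20 to 8.87 in the other endothelial clusters. It also held Tgfbr2 at 426, against 161 to 211 in the others. Endocardium, led by Tmem108, held Ltbp1 at 469, against 115 to 170 in the other endothelial clusters, and Ltbp3 at 82.9. Arterial endothelium, led by Mannr, held Tgfb2 at 140 and Ltbp4 at 437. In fibroblasts a Pi16-led cluster had the highest Tgfbr2, at 428, and Tgfbr3, at 1109. In myeloid cells a Cd163-led macrophage cluster had Tgfbr2 at 396, against 190 in a Gpnmb-led and 160 in an Ms4a8a-led cluster. No sham mouse had 20 nuclei of the Gpnmb- or Ms4a8a-led cluster, and in I/R mice alone the means were 324, 200.3 and 146. Cardiomyocytes of the Fstl4- and Ankrd1-led cluster had Tgfb2 at 86.1, against 15.9 and 23.1 in the 2 other cardiomyocyte clusters, and Ltbp1 at 140, against 279 and 192.

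For comparisons between groups, UMIs were summed per mouse and cell type, scaled with TMM factors and tested by limma on log2(CPM + 1). Values of a group are listed in the order of the mouse numbers in the labels. A gene was called where its Benjamini-Hochberg adjusted p over all genes tested was at most 0.05 and its absolute log2 fold change was over 0.25. Fold changes on this scale understate the change of low genes. A single animal gave each sample, and 38 of the 40 combinations of member and main cell type passed the filter on low values, with Tgfb3 and Ltbp2 left out in myeloid cells. Ltbp2 in cardiomyocytes and endothelial cells passed with no sham mouse at the minimum, so a difference there was built into passing. Their calls and counts are given below as values and support nothing.

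In fibroblasts, I/R vs. sham called 2 of 10 members, Ltbp2 higher and Ltbp4 lower, while 11.5% of all 13072 genes tested were called. Ltbp2 stood at 14.8, 9.42 and 7.24 CPM in sham mice, at 156, 160 and 69.9 in I/R mice and at 108, 104 and 119 in SBP mice. Every injured heart, with or without SBP, lay above every sham heart. The I/R mean was 129 ± 51.0 (SD, n = 3) against 10.5 ± 3.88 in sham mice, a log2 fold change of 3.46 ± 0.316 (SE; 95% interval 2.76 to 4.16; limma adjusted p = 0.00015). Ltbp4 stood at 412, 482 and 473 CPM in sham mice, at 141, 125 and 128 in I/R mice and at 227, 192 and 269 in SBP mice. The 3 groups did not overlap, with sham mice highest, I/R mice lowest and SBP mice between them. For Ltbp4 the fold change was −1.78 ± 0.148 (95% interval −2.11 to −1.46; limma adjusted p = 7.09e-05). Groups did not overlap for these 2 members alone, against 27.1% of all genes tested. Markers of other types moved in the same sums beside those of cardiomyocytes. Myeloid markers summed to 370 to 703 CPM in sham mice, 532 to 1068 in I/R mice and 399 to 677 in SBP mice, with 2 of 11 tested (C1qb and Csf3r) called higher. Endothelial markers summed to 314 to 404 in sham mice, 196 to 284 in I/R mice and 185 to 430 in SBP mice, with 1 of 8 (Ptprb) called lower. No marker of either list was at 0, and their part in the fibroblast values was not tested.

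The other 8 members were not called in fibroblasts. Fibroblast Tgfb2, of which this is the leading cell type, stood at 81.0, 154 and 104 CPM in sham mice, 196, 153 and 105 in I/R mice and 143, 221 and 155 in SBP mice. Tgfb3 stood at 25.1, 23.2 and 25.5 in sham mice, 35.1, 18.0 and 21.2 in I/R mice and 33.2, 22.2 and 26.2 in SBP mice. Both ligands overlapped between all groups. Tgfbr3 was at 838, 831 and 812 in sham mice, 604, 984 and 1158 in I/R mice and 1019, 780 and 899 in SBP mice, and its I/R values ran from below to above all sham values. Ltbp1 was at 574, 435 and 619 in sham mice, 340, 472 and 485 in I/R mice and 482, 469 and 485 in SBP mice. Ltbp3 was at 60.0, 84.4 and 50.3 in sham mice, 97.3, 80.9 and 54.2 in I/R mice and 99.1, 71.8 and 67.2 in SBP mice. Neither latency gene separated the groups. Tgfb1 had a log2 fold change of −0.57 (limma adjusted p = 0.18), which was called only without sham mouse 2 (−0.89, adjusted p = 0.0223) and was 0.39 in the largest cluster alone (adjusted p = 0.687). Tgfbr2 had 293, 183 and 205 in sham mice against 180, 492 and 493 in I/R mice, so 2 of 3 I/R mice were high and 1 was not. Its fold change of 0.66 (limma adjusted p = 0.296) became 1.15 (adjusted p = 0.00694) without I/R mouse 1. The make-up of the fibroblasts also differed between mice. An Inmt-led cluster was 12.3%, 44.4% and 82.7% of them in I/R mice, 8.58% to 12.3% in sham mice and 51.7%, 27.7% and 39.6% in SBP mice. Without TMM factors Tgfbr2 was 181 to 288 CPM in sham mice, 188 to 504 in I/R mice and 191 to 285 in SBP mice. The part of the make-up in Tgfbr2 was not tested. A Kcnip1-led cluster was 23.6% to 54.3% in sham mice and 0.0589% to 2.96% in I/R mice. Within the Inmt-led cluster alone the Tgfbr2 fold change was 0.89 (limma adjusted p = 0.245).

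Ltbp2 in fibroblasts lay almost wholly in 1 cluster. A Tnc-led cluster of fibroblasts held 1443 of the 1507 fibroblast Ltbp2 UMIs of I/R mice. Ltbp2 averaged 346 CPM there in I/R mice (312 to 394) and 383 in SBP mice (243 to 533), against means between 6.20 and 17.3 over all mice in the other 4 fibroblast clusters. That cluster had 8 sham nuclei in all, 1093 I/R nuclei and 820 SBP nuclei. It made up 34.5%, 29.9% and 9.42% of fibroblasts in I/R mice and 17.0%, 23.1% and 10.0% in SBP mice. The I/R mouse with the lowest share was also the one with the lowest Ltbp2. In SBP mice the order was the reverse, since the mouse with the lowest share had the highest Ltbp2 and the mouse with the highest share the lowest. Ltbp2 was not used in clustering but is among the leading genes of the cluster, so its level there is a description. With the Tnc-led cluster left out, the fibroblast fold change of Ltbp2 was −0.25 (95% interval −1.53 to 1.02; limma adjusted p = 0.854), a comparison added after the data were seen. Within the other 3 clusters with enough nuclei, the I/R mean was higher in 3 of 3, and sham and I/R mice overlapped in each.

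Ltbp4 was lower outside the Tnc-led cluster as well. Without the Tnc-led cluster its fold change in fibroblasts was −1.48 (limma adjusted p = 0.00177), and within the largest, Inmt-led cluster alone it was −1.38 (adjusted p = 0.0202), where 0.753% of all genes were called. Means for sham, I/R and SBP mice were 435, 167 and 289 CPM in the Inmt-led cluster. They were 434, 233 and 262 in the Adamtsl2-led cluster and 313, 154 and 242 in the Pi16-led cluster. In these 3 fibroblast clusters every sham mouse lay above every I/R mouse. In the Tnc-led cluster Ltbp4 averaged 105 in I/R mice and 145 in SBP mice.

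**Figure D2:**
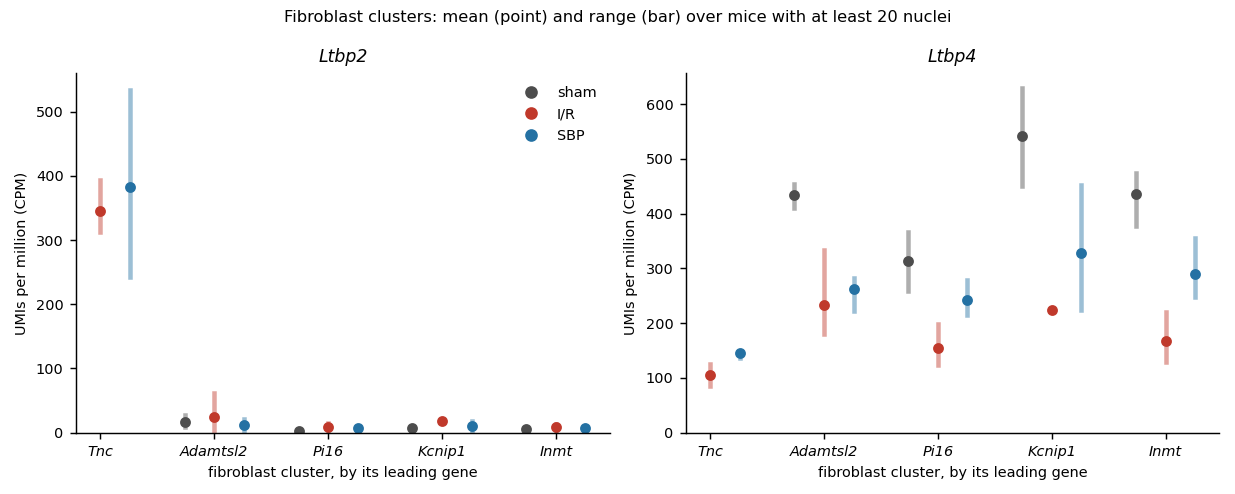
Ltbp2 and Ltbp4 (CPM, linear axis from 0) in the 5 fibroblast clusters, each named by a leading gene. Points are means and bars the range over mice with at least 20 nuclei of the cluster, coloured by group. Ltbp2 stood at 346 in I/R mice and 383 in SBP mice in the Tnc-led cluster and near the axis elsewhere, while Ltbp4 was lower in I/R than in sham mice in the Adamtsl2-, Pi16- and Inmt-led clusters.

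In endothelial cells, I/R vs. sham called Ltbp4 lower, with 3.04% of all 12221 genes tested called. Ltbp2 also passed the threshold, but it had entered the test through injured mice alone. Ltbp4 stood at 333, 443 and 324 CPM in sham mice, 201, 116 and 171 in I/R mice and 224, 228 and 217 in SBP mice. Sham mice lay above both injured groups. The log2 fold change was −1.19 ± 0.191 (95% interval −1.61 to −0.77; limma adjusted p = 0.00976), and the call was lost without sham mouse 2 (adjusted p = 0.0536). Each of the 5 endothelial clusters showed sham mice above I/R mice with no overlap. In capillary endothelium mean Ltbp4 was 332 CPM for sham mice and 139 for I/R mice. The matching pairs were 346 and 131 in the Kirrel3-led cluster, 381 and 163 in endocardium, 607 and 259 in arterial and 427 and 234 in lymphatic endothelium. SBP mice had 172, 186, 209, 445 and 325 in the same order of clusters.

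Endothelial Ltbp2 was near 0 in sham mice, at 0.561, 0.648 and 0.412 CPM. I/R mice had 7.37, 9.01 and 3.90 and SBP mice 5.58, 5.03 and 10.5, all above sham mice. The log2 fold change was 2.27 ± 0.385 (95% interval 1.43 to 3.11; limma adjusted p = 0.0117), lost without sham mouse 2 (adjusted p = 0.0525) or I/R mouse 2 (adjusted p = 0.0551). These values rested on 4 sham UMIs and 48 I/R UMIs. Fibroblast markers were detected in endothelial nuclei too, and 3 of 7 were called higher in I/R mice, with a summed level of 881 to 1133 CPM in sham mice, 1257 to 1781 in I/R mice and 1254 to 1410 in SBP mice. None of the 7 was at 0, and the 3 were Col1a1, Col1a2 and Col3a1, which rose in fibroblasts themselves. The 4 others, Dcn, Fbln1, Pdgfra and Gsn, summed to 774 to 1011 in sham mice and 753 to 1251 in I/R mice. As a share of the fibroblast level of the same I/R mice, endothelial Ltbp2 was 4.53% to 5.62% and the fibroblast marker list 15.8% to 19.3%. The part of fibroblast transcripts in the endothelial Ltbp2 difference was not tested.

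Tgfbr2 and Tgfbr3 had higher means in endothelial cells of I/R mice without passing the test. Myeloid markers in the same sums were higher too, with 2 of 11 tested (C1qb and Csf3r) called, none of 13 at 0, and a summed level of 317 to 445 CPM in sham mice, 633 to 952 in I/R mice and 382 to 531 in SBP mice. In I/R mice that list stood at 5.26% to 10.8% of its myeloid level and endothelial Tgfbr2 at 73.6% to 184%, and the part of myeloid transcripts was not tested further. Tgfbr2 stood at 161, 160 and 140 CPM in sham mice, 171, 305 and 298 in I/R mice and 249, 219 and 263 in SBP mice. All sham mice lay below all injured mice, though I/R mouse 1 only just. The log2 fold change was 0.70 (95% interval 0.26 to 1.13; limma adjusted p = 0.0859), and without I/R mouse 1 it was 0.99 (adjusted p = 0.00418). In capillary endothelium mean Tgfbr2 was 104 in sham mice and 287 in I/R mice, and in the Kirrel3-led cluster 103 and 212, both without overlap. Lymphatic endothelium, where it was highest, had 428 in sham mice and 371 in I/R mice. Tgfbr3 stood at 271, 265 and 245 CPM in sham mice, 294, 345 and 387 in I/R mice and 336, 367 and 356 in SBP mice, with no overlap with sham mice (log2 fold change 0.38, 95% interval 0.11 to 0.66; limma adjusted p = 0.132). Tgfb1 stood at 95.3, 85.2 and 92.3 in sham mice, 61.3, 83.6 and 78.3 in I/R mice and 91.9, 56.7 and 83.6 in SBP mice. All I/R mice lay below all sham mice, with a fold change of −0.30 (limma adjusted p = 0.443). Groups did not overlap for 5 of 10 members in endothelial cells, Ltbp2 among them, against 21.1% of all genes.

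In myeloid cells, I/R vs. sham called 3 of the 8 members tested, Tgfbr2, Ltbp1 and Ltbp4, all lower, with 17.1% of all 10910 genes tested called and 8.92% called lower. Tgfbr2 stood at 381, 414 and 473 CPM in sham mice, 229, 169 and 244 in I/R mice and 260, 238 and 354 in SBP mice. Every sham mouse lay above every injured mouse. The log2 fold change was −0.99 ± 0.189 (95% interval −1.40 to −0.58; limma adjusted p = 0.00422). Ltbp4 stood at 35.8, 46.6 and 38.6 in sham mice, 20.5, 16.4 and 18.8 in I/R mice and 19.2, 21.1 and 25.6 in SBP mice, again without overlap with sham mice (log2 fold change −1.08 ± 0.21; limma adjusted p = 0.00471). Ltbp1 stood at 106, 56.2 and 61.2 in sham mice, 36.2, 39.9 and 26.4 in I/R mice and 53.6, 35.2 and 30.6 in SBP mice. Its fold change was −1.06 ± 0.278 (limma adjusted p = 0.021), and the call was lost without sham mouse 1 (adjusted p = 0.0812) or I/R mouse 3 (adjusted p = 0.0643). Several marker lists moved in the same sums. All 6 cardiomyocyte markers tested and 2 of 8 endothelial markers were called lower, and 3 of 7 fibroblast markers, the collagens, were called higher. Of the myeloid markers themselves, Csf1r was called lower and Csf3r and Vcan higher. The part of these markers in the 3 genes was not tested.

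The make-up of the myeloid nuclei changed alongside. The Cd163-led macrophage cluster was 90.4% to 94.1% of myeloid nuclei in sham mice and 17.0%, 6.20% and 49.1% in I/R mice. A Gpnmb-led cluster was 67.1% of them in I/R mouse 1 and an Ms4a8a-led cluster 76.8% in I/R mouse 2. Within the Cd163-led cluster, where 1.22% of all genes were called, Tgfbr2 averaged 451 CPM in sham mice (404 to 487) and 324 in I/R mice (318 to 332). The ranges were apart, with a fold change of −0.46 that did not pass the test (limma adjusted p = 0.154). Ltbp4 was still called there (−1.41, adjusted p = 0.0324), and Ltbp1 was not (−1.20, adjusted p = 0.0719). Ltbp4 of myeloid nuclei was 8.42% to 10.2% of the fibroblast level in sham mice, below the 14.0% to 16.2% of the fibroblast marker list, and 12.3% to 15.02% in I/R mice, where the list stood at 10.8% to 13.5%. Ltbp4 thus lay below the list in sham mice and overlapped with it in I/R mice. Whether these Ltbp4 transcripts came from other cells was not tested.

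The remaining myeloid members were not called. Tgfb1, at its highest in this type, stood at 123, 157 and 159 CPM in sham mice, 115, 107 and 122 in I/R mice and 127, 137 and 148 in SBP mice. All I/R mice lay below all sham mice by a small margin, with a fold change of −0.34 (limma adjusted p = 0.143). Without TMM factors the ranges were 120 to 164 and 103 to 126 and overlapped. Tgfbr1 stood at 439, 408 and 639 in sham mice, 450, 217 and 270 in I/R mice and 341, 418 and 425 in SBP mice. I/R mouse 1 overlapped with sham mice, and the fold change of −0.70 (limma adjusted p = 0.0791) became −0.99 (adjusted p = 0.00631) without it. Tgfbr3 stood at 106, 95.8 and 82.4 in sham mice, 42.3, 73.0 and 58.0 in I/R mice and 78.5, 45.5 and 44.1 in SBP mice. Sham mice were highest without overlap (log2 fold change −0.73; limma adjusted p = 0.063). Over the 8 tested members the median log2 fold change was −0.72, against 0.01 over all genes, and groups did not overlap for 5, or 4 without TMM factors, against 34.4% of all genes. Ltbp2, too low to be tested, was at 0, 0.879 and 0.729 CPM in sham mice, 7.72, 6.48 and 2.98 in I/R mice and 5.60, 3.52 and 2.84 in SBP mice.

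In cardiomyocytes no member was called in I/R vs. sham by limma, with 0.829% of all 12905 genes called, and 4 of 10 members had an unadjusted p under 0.05, as did 1825 of all genes. Those were Tgfb2, Ltbp1, Ltbp4 and Ltbp2, the last with its difference built into passing the filter. Tgfb2 stood at 19.6, 17.2 and 19.6 CPM in sham mice, 44.9, 60.4 and 20.1 in I/R mice and 74.4, 47.7 and 45.7 in SBP mice. All injured mice lay above sham mice, but I/R mouse 3 only just. The log2 fold change was 0.98 (95% interval 0.23 to 1.73; limma adjusted p = 0.229) and was 1.43 without I/R mouse 3 (adjusted p = 0.0157). In the largest cardiomyocyte cluster alone, with 7 samples in the fit, it turned to −0.91 (adjusted p = 0.68). The Fstl4- and Ankrd1-led cluster, where Tgfb2 was highest, made up 0.491% to 2.22% of cardiomyocytes in sham mice, 13.2%, 89.0% and 53.0% in I/R mice and 87.8%, 42.6% and 44.9% in SBP mice. The highest share and the highest Tgfb2 fell in the same mouse among I/R mice (mouse 2) and among SBP mice (mouse 1). I/R mouse 3 had 53.0% and the lowest Tgfb2 of the I/R mice, at 20.1 CPM, while I/R mouse 1 had 13.2% and 44.9 CPM. The part of the make-up in cardiomyocyte Tgfb2 was not tested. Ltbp1 stood at 331, 337 and 252 in sham mice, 277, 102 and 113 in I/R mice and 111, 183 and 193 in SBP mice. I/R mouse 1 overlapped with sham mice, and the fold change of −1.04 (limma adjusted p = 0.22) became −1.49 (adjusted p = 0.00846) without it. That mouse also had the smallest share of the Fstl4-led cluster among the injured mice, and the part of the make-up in Ltbp1 was not tested.

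Cardiomyocyte Ltbp2 stood at 0.190, 0.284 and 0.0992 CPM in sham mice, 2.61, 4.07 and 0.967 in I/R mice and 3.47, 1.91 and 1.52 in SBP mice, which are 4 sham and 46 I/R UMIs. No injured mouse overlapped with a sham mouse, and the log2 fold change was 1.47 (95% interval 0.68 to 2.27; limma adjusted p = 0.101). Fibroblast markers in cardiomyocytes moved as well, with the same 3 collagens of 7 called higher and a summed level of 262 to 269 in sham mice and 368 to 488 in I/R mice. Without the collagens the sum was 231 to 244 and 199.7 to 322. Cardiomyocyte Ltbp2 was 1.43% to 2.59% of the fibroblast level in I/R mice and the fibroblast marker list 4.90% to 5.12%. Ltbp4 stood at 12.2, 22.0 and 12.6 in sham mice, 10.3, 7.75 and 8.34 in I/R mice and 12.1, 9.98 and 11.9 in SBP mice. All I/R mice lay below all sham mice, with a fold change of −0.72 (limma adjusted p = 0.203). With cell types from marker scores, cardiomyocyte Ltbp4 was called. Groups did not overlap for 3 members, Ltbp2 among them, against 16.5% of all genes.

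**Figure D3:**
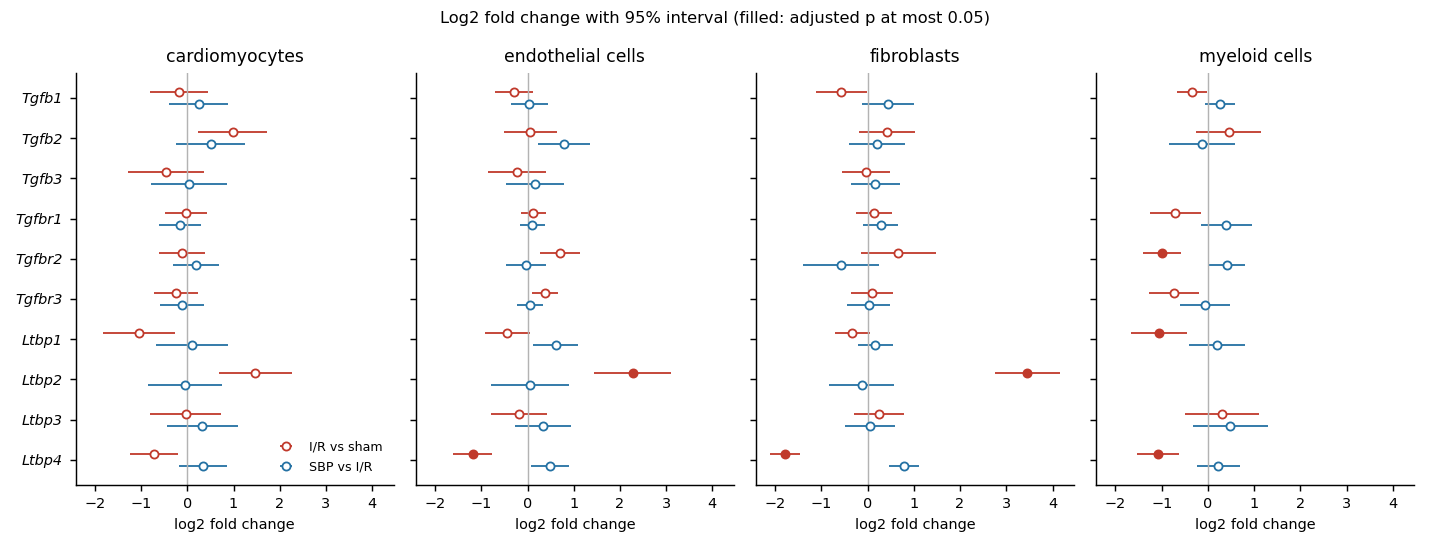
Log2 fold change on the log2(CPM + 1) scale with 95% interval for the 10 members in 4 cell types, I/R vs. sham in red and SBP vs. I/R in blue. Filled points have an adjusted p of at most 0.05 over all genes tested, and missing points were not tested. The filled points are Ltbp2 and Ltbp4 in endothelial cells and fibroblasts and Tgfbr2, Ltbp1 and Ltbp4 in myeloid cells, all for I/R vs. sham.

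Summed over all nuclei of a sample, called the whole heart here, Ltbp1, Ltbp2 and Ltbp4 were called in I/R vs. sham, 3 of 10 members, with 10.8% of all 16044 genes called. In such sums, fewer nuclei of a type and less RNA per nucleus cannot be told apart. Ltbp1 stood at 382, 331 and 322 CPM in sham mice, 218, 206 and 197 in I/R mice and 244, 233 and 286 in SBP mice. The 3 groups did not overlap, with SBP mice in between (I/R vs. sham −0.73, limma adjusted p = 0.0103). Ltbp4 stood at 170, 212 and 152 in sham mice, 66.2, 56.0 and 64.1 in I/R mice and 116, 84.5 and 124 in SBP mice, in the same order and without overlap (−1.49, limma adjusted p = 0.00233). Ltbp2 stood at 3.75, 2.23 and 1.49 in sham mice, 38.5, 43.6 and 17.9 in I/R mice and 32.4, 26.9 and 36.7 in SBP mice. Both injured groups lay above sham mice and overlapped with each other (3.26, limma adjusted p = 0.00115). Groups did not overlap for these 3 members, against 30.5% of all genes.

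Whether injury moved a member differently in 2 cell types was tested on the within-mouse difference, for 6 pairs of types and 54 tests of members. The called share of all genes was 0.0264% for cardiomyocytes minus endothelial cells, 2.26% for cardiomyocytes minus fibroblasts, 5.26% for cardiomyocytes minus myeloid cells, 0.586% for endothelial cells minus fibroblasts, 3.06% for endothelial minus myeloid cells and 6.5% for fibroblasts minus myeloid cells. The call that rests on members measured in sham mice was that of Tgfbr2, which moved by 0.70 in endothelial cells and by −0.99 in myeloid cells, a difference of 1.69 (limma adjusted p = 0.0234). The call was lost without sham mouse 2, sham mouse 3, I/R mouse 2 or I/R mouse 3, with adjusted p up to 0.0795. For fibroblasts minus myeloid cells the Tgfbr2 difference was 1.65 (limma adjusted p = 0.0533). The variance trend of these fits ran on the mean difference between the types. With the trend on their mean level, an alternative added later, that Tgfbr2 difference was called. So were Tgfbr2 in cardiomyocytes minus myeloid cells and Tgfbr3 in endothelial cells and in fibroblasts, each minus myeloid cells. Ltbp4 in fibroblasts against cardiomyocytes and myeloid cells, and Ltbp2 in endothelial cells minus fibroblasts, were called as well. The other call of the main fit, Ltbp2 in cardiomyocytes minus fibroblasts (−1.99, limma adjusted p = 0.0159), is not read as a difference. Cardiomyocyte Ltbp2 lay near 0 in sham mice, and the offset of 1 CPM shrinks its fold change.

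SBP vs. I/R called no member in any cell type or in the whole heart by limma, with 0% of all genes called in each. This comparison shares the I/R mice with I/R vs. sham, so each I/R value enters both. Members with an unadjusted p under 0.05 numbered 0 of 10 in cardiomyocytes, 3 of 10 in endothelial cells, 1 of 10 in fibroblasts, 0 of 8 in myeloid cells and 2 of 10 in the whole heart. Over all genes tested, the numbers under 0.05 were 271, 631, 464, 435 and 697 in the same order. Groups did not overlap for 0, 3, 1, 1 and 3 members, against 5.62%, 9.32%, 8.42%, 9.21% and 8.25% of all genes.

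The smallest unadjusted p of a member in SBP vs. I/R was that of Ltbp4 in fibroblasts. It was higher in SBP mice by 0.79 ± 0.148 on the log2 scale (95% interval 0.46 to 1.11; limma adjusted p = 0.66), with 3 of 3 SBP mice above all I/R mice. SBP mice still had less than sham mice, by −0.997 (95% interval −1.32 to −0.67; limma adjusted p = 0.00245), a call lost without the Tnc-led cluster (−0.74, adjusted p = 0.0708) and in the Inmt-led cluster alone (−0.59, adjusted p = 0.304). In endothelial cells Ltbp4 was higher in SBP than in I/R mice by 0.49 (95% interval 0.07 to 0.91; limma adjusted p = 0.943) and over the whole heart by 0.78 (0.39 to 1.17; limma adjusted p = 0.996). None of these passed the test. Endothelial Tgfb2 stood at 36.4, 73.6 and 36.7 CPM in sham mice, 53.0, 51.0 and 41.8 in I/R mice and 108, 72.2 and 76.7 in SBP mice, with all SBP mice above all I/R mice (0.79, 95% interval 0.22 to 1.36; limma adjusted p = 0.943). Endothelial Ltbp1 stood at 307, 301 and 252 in sham mice, 247, 266 and 141 in I/R mice and 289, 292 and 388 in SBP mice, also without overlap between the injured groups (0.61, 95% interval 0.12 to 1.09; limma adjusted p = 0.943). For fibroblast Ltbp2 the interval of SBP vs. I/R ran from −0.83 to 0.57 around −0.13, so changes of either sign within it could not be told from none.

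SBP vs. sham called Ltbp2 and Ltbp4 in fibroblasts (5.89% of all genes called), Ltbp2 in endothelial cells (2.12%, again with no sham mouse at the minimum), Ltbp4 in myeloid cells (12.4%), no member in cardiomyocytes (0.139%) and Ltbp2 in the whole heart (2.97%), by limma. In cardiomyocytes 3 of 10 members had an unadjusted p under 0.05, as did 1729 of all 12905 genes, the smallest adjusted p being that of Tgfb2 (1.49, adjusted p = 0.0988). Ltbp2 was higher than in sham mice by 3.33 in fibroblasts (limma adjusted p = 0.000456), 2.32 in endothelial cells (0.0119) and 3.28 in the whole heart (0.00243). The endothelial call was lost without sham mouse 3 (adjusted p = 0.059) or SBP mouse 3 (adjusted p = 0.064), and without the Tnc-led cluster the fibroblast value was −0.23 (adjusted p = 0.895). Myeloid Ltbp4 was lower by −0.85 (limma adjusted p = 0.0209), a call lost without sham mouse 2 or 3 or SBP mouse 1 or 2. Groups did not overlap in SBP vs. sham for 4 members in cardiomyocytes, or 3 without TMM factors (23.2% of all genes), 5 in endothelial cells (23.9%), 3 in fibroblasts (27.1%), 4 in myeloid cells, or 5 without TMM factors (34.4%), and 5 in the whole heart (33.2%).

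The share of a member's UMIs that came from a cell type was compared by a two-sided exact permutation test, whose smallest possible p with 3 mice against 3 is 0.1. In 16 of 40 combinations of member and main type, sham and I/R mice did not overlap, each at that smallest p (0.25 after adjustment). Over all genes of the whole heart test and the same 4 types, 37.8% of such shares did not overlap, so the members' count lies near the background. With cell types from marker scores the count was 20 of 40. The share over all genes was not computed for those types, so that count has no background beside it. The values below describe where the transcripts lay, and none passed the test. Myeloid cells held 16.1%, 27.5% and 29.0% of Tgfb1 UMIs in sham mice, 61.9%, 43.4% and 42.2% in I/R mice and 24.3%, 53.6% and 31.9% in SBP mice. All I/R mice lay above sham mice, while SBP mice overlapped with both groups. Over the same samples myeloid nuclei made up, on average, 11.5% of the nuclei of sham mice, 27.1% of those of I/R mice and 18.2% of those of SBP mice, whereas the Tgfb1 level within them, in CPM, was not higher. Cardiomyocytes held 47.5%, 51.4% and 48.8% of Ltbp1 UMIs in sham mice, 44.5%, 17.8% and 26.7% in I/R mice and 17.9%, 30.6% and 25.7% in SBP mice. Their mean share of Tgfbr3 UMIs was 46.4% in sham and 30.2% in I/R mice, and that of fibroblasts 38.6% and 53.0%. Cardiomyocytes were 26.7% of nuclei in sham mice and 19.1% in both injured groups. Ltbp2 UMIs came mostly from fibroblasts in every group, with 87.7%, 90.6% and 91.2% in sham, I/R and SBP mice. With types from marker scores these were 76.9%, 88.5% and 80.6%, and sham and I/R mice did not overlap. Ltbp4 UMIs came from fibroblasts (52.4%, 49.7% and 56.2%) and endothelial cells (38.3%, 36.9% and 34.8%), with overlap between sham and I/R mice in both. Its cardiomyocyte share was 4.78% in sham and 5.46% in I/R mice, but 12.3% and 5.92% without overlap with types from marker scores.

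**Figure D4:**
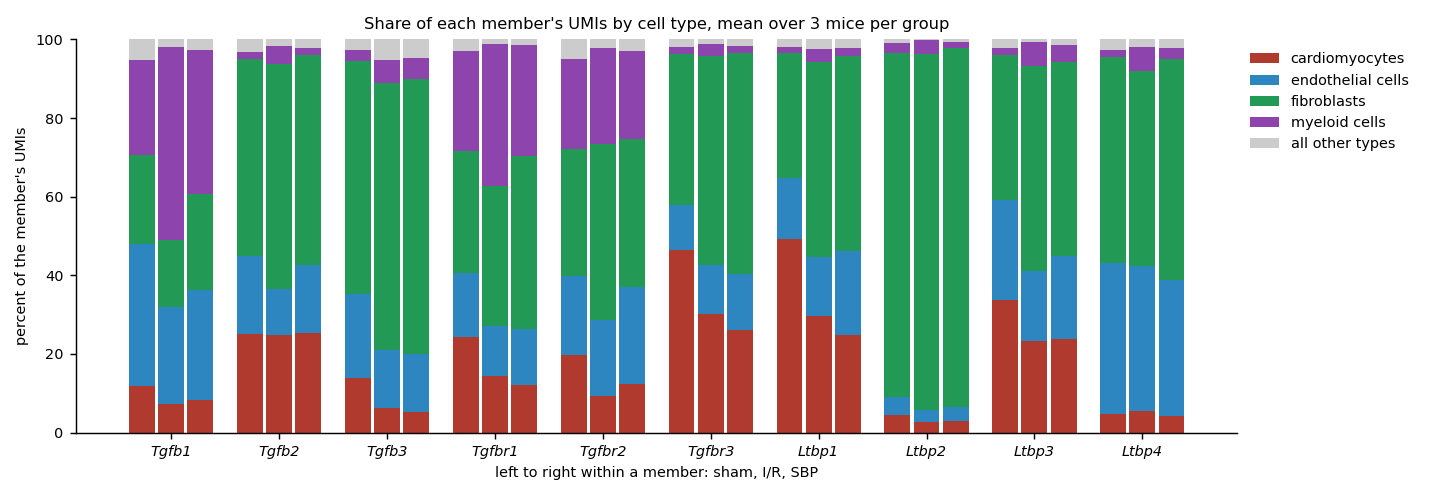
Share of each member's UMIs by cell type in percent, as the mean over 3 mice, with stacked bars for sham, I/R and SBP from left to right. The myeloid share of Tgfb1 was 24.2%, 49.2% and 36.6%, and the cardiomyocyte share of Ltbp1 was 49.2%, 29.6% and 24.7%.

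Around the members, the pathway was described by 4 lists, with counts beside the median log2 fold change of each list and of all genes in I/R vs. sham. The lists were chosen with earlier results of these data known, so their counts are a description and no test of the pathway. Counts and medians take only genes for which a mouse of each group compared reached the minimum of the filter, since a gene that entered through 1 group alone had to differ. The first holds 18 genes that release or anchor latent TGF beta. Of those tested, 1 of 13 rose in cardiomyocytes (median 0.30 against −0.02), 4 of 16 in endothelial cells (0.50 against −0.03), 4 of 16 in fibroblasts (0.21 against −0.01) and 3 of 11 in myeloid cells, where 1 fell (0.45 against 0.01). Background shares of such genes called higher were 0.431%, 1.24%, 4.97% and 7.35%. Thbs1, thrombospondin-1, which frees the ligand from its propeptide, rose by 5.83 ± 0.632 in myeloid cells (limma adjusted p = 0.000679) and 2.48 in endothelial cells. In I/R mice endothelial Thbs1 stood at 7.87% to 17.3% of its myeloid level, beside 5.26% to 10.8% for the myeloid marker list. The part of myeloid transcripts in endothelial Thbs1 was not tested. Mmp14, a membrane protease, rose by 2.01 in cardiomyocytes, 1.84 in fibroblasts and 1.30 in endothelial cells. In I/R mice it stood at 7.05, 9.10 and 4.96 CPM in cardiomyocytes, against 98.0, 126 and 105 in fibroblasts. As a share of the myeloid level it was 7.89% to 16.0% in cardiomyocytes, beside 1.21% to 2.69% for the myeloid marker list. In endothelial cells that share of Mmp14 was 63.9% to 145%. The part of transcripts from other cells in these rises was not tested. Myeloid Mmp14 and cardiomyocyte Thbs1 were below the minimum in every sham mouse and are left out. Itgav, the integrin alpha V chain, rose by 0.95 in endothelial cells and 0.74 in fibroblasts, and the fibrillins Fbn2 and Fbn1, to which LTBPs attach, rose by 1.87 and 1.46 in fibroblasts. Nrros, which holds latent TGF beta 1 on macrophages, was the member of the list that fell in myeloid cells.

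The second list holds 18 genes of signal transduction and feedback, and its counts lay near or below the background in each type. None of 18 was called in cardiomyocytes or endothelial cells by limma (0.599% and 2.55% of all genes that met the same minimum), with 1 at an unadjusted p under 0.05 in each (medians −0.08 and 0.02). In fibroblasts, where 9.89% of such genes were called, 2 of 17 fell (median −0.16), namely Acvrl1, a type I receptor, by −1.19 ± 0.266 (limma adjusted p = 0.0161) and Ski, a SMAD repressor, by −0.41. In myeloid cells, with 15.9% of such genes called, 1 of 17 rose and 1 fell (median 0.04), namely the repressor Tgif1 by 1.07 and the signal carrier Smad3 by −0.81. The third list holds 18 genes known as TGF beta targets, which other signals also induce. Tnc, Postn, Col3a1, Col1a2 and Col1a1 of this list are leading genes of the Tnc-led fibroblast cluster of these same nuclei. Of those tested, 4 of 12 rose in cardiomyocytes, 6 of 15 in endothelial cells, 9 of 18 in fibroblasts and 5 of 10 in myeloid cells, and none fell, with medians of 2.00, 1.38, 1.23 and 1.46. The background shares are those given for the first list. Tnc, tenascin C, rose by 6.67 ± 0.323 in fibroblasts (limma adjusted p = 2.85e-06). Timp1, a protease inhibitor, rose by 4.61 in fibroblasts, and Lox, the collagen cross-linking enzyme, by 3.56. In the other 3 types Timp1 and Lox lay below the minimum in every sham mouse, so their differences there are not counted. Col1a1, a collagen chain, rose by 3.37 in fibroblasts, 2.85 in myeloid cells, 3.05 in endothelial cells and 3.24 in cardiomyocytes. Col1a1, Col1a2 and Col3a1 belong both to this list and to the fibroblast markers, of which those 3 rose in every main type. In myeloid cells the 4 other fibroblast markers summed to 570 to 754 in sham mice and 456 to 802 in I/R mice. The part of fibroblast transcripts in the target list of the other types was not tested.

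The fourth list holds 10 proteoglycans and binding proteins that trap ligands of the family. In fibroblasts Fst, follistatin, rose by 1.38 and Lum, lumican, fell by 1.01 on the log2 scale (of 8 tested, median 0.48 against −0.01), with 9.89% of all genes that met the same minimum called. In myeloid cells Bgn, biglycan, rose by 0.83 (of 4 tested, median 0.46 against 0.01), with 15.9% of such genes called. None of 5 was called in cardiomyocytes and none of 6 in endothelial cells by limma, with 2 and 1 at an unadjusted p under 0.05 (medians 0.56 and 0.26). SBP vs. I/R called no gene of any of the 4 lists in any of the 4 types. In SBP vs. sham, 8 of 18 targets were called higher in fibroblasts (2.42% of such genes called higher) and 5 of 10 in myeloid cells (5.49%), where Fap was lower. In cardiomyocytes 1 of 12 was called higher (0.0644%), namely Col3a1, and in endothelial cells 3 of 15 (0.364%), namely Col1a1, Col3a1 and Tnc.

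Last, each member was set beside all 14158 genes with enough UMIs, by Pearson's r of log2(CPM + 1) over 56 sums of a mouse and cell type. The sums share mice, cell types and depth, so r is a description. Ltbp2 was most like Fst (r = 0.857), Gm6093 (0.845) and Col12a1 (0.836). Ltbp4 was most like Igfbp7 (0.903), Mecom (0.866) and Fbxl7 (0.865). Ltbp1 was most like Ghr (0.891), Tgfbr3 like Rora (0.881), and Ltbp1 was the third most alike gene for Tgfbr3 (0.865). For the kinase receptors the leading genes were Fndc3a for Tgfbr1 (0.851) and Fam111a for Tgfbr2 (0.898). For the ligands they were Ptbp3 for Tgfb1 (0.929), Rusc2 for Tgfb2 (0.808) and Evc2 for Tgfb3 (0.879), and for Ltbp3 it was Frk (0.911). Among the members themselves r was 0.795 for Tgfb1 with Tgfbr2, 0.695 for Tgfbr1 with Tgfbr2 and 0.377 for Ltbp2 with Ltbp4.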

How the data were processed

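The authors deposited natural log values, ln(1 + 10000 × UMIs of a gene / total UMIs), for every nucleus. Per the methods, the authors used fastp, down-sampling of reads, filters on nuclei (over 200 genes, a mitochondrial share below 10%) and removal of mitochondrial genes. Per the labels, the tools were Cell Ranger 4.0 (STAR, build GRCm38) and Seurat 3.2.0, whereas the methods name later versions of both, and the sources used here do not settle which made the files. No intronic setting is given in the sources used here. Within each nucleus the lowest value above 0 was read as 1 UMI, and at least 99.9994% of values were then within 0.1 of a whole number. Nuclei (405 genes or more each) were clustered in Scanpy 1.11.5 (2000 variable genes without the members, 30 components, 20 neighbours, Leiden resolution 1.2), with 1 cluster split again, into 24 clusters named from at least 3 detected markers. Differences from the study's types may come from this rebuilding. Doublet scoring marked 85 nuclei (0.173%), too few to have worked, and these were removed. An alternative removed the 2168 highest-scoring nuclei. UMIs were summed per mouse and type (at least 20 nuclei), with TMM factors of 0.919 to 1.09. A gene was tested where 3 samples reached the CPM that 10 UMIs give in the median library and where it had 15 UMIs in all. limma 3.58.1 in R 4.3.3, with trend and robust variances, was fitted to all 9 samples on log2(CPM + 1). Differences between cell types were fitted on within-mouse differences. The fit was also run on simulated data with 200 changed genes, and the outcome is neither given nor used as support here. A count model, which the study's methods name, was not used: the tables hold logs, and recovered UMIs were tested on a log scale throughout.

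Groups and mouse numbers came from the sample titles. Same-numbered mice of different groups did not deviate together (correlations −0.40 to 0.30), so no pairing was used. That each sample is a separate mouse is stated by the study. The members, lists and rules were chosen with earlier results of these data known. By rule, values of single mice are given where a member was called, where sham and I/R mice did not overlap, or in its highest cell type, and at most 5 called genes are named per list. Endothelial Tgfb2 and Ltbp1, fibroblast Tgfbr2, cardiomyocyte Ltbp1, myeloid Ltbp2, the gene Nrros and the split of the fibroblast markers were added after their values were seen.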

Additional observations from a re-analysis of the deposited data

Results flagged for a closer look

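The effect of I/R on Tgfbr2 differed between endothelial cells and myeloid cells by 1.69 (limma, adjusted p = 0.0234), with effects of 0.70 and −0.99. In endothelial cells 3 of 3 I/R mice lay above the sham mice, and in myeloid cells 3 of 3 lay below them. The call was lost without sham mouse 2, sham mouse 3, I/R mouse 2 or I/R mouse 3 (adjusted p up to 0.0795). The endothelial effect itself was not called (adjusted p = 0.0859), and the myeloid effect was −0.46 within the Cd163-led cluster (adjusted p = 0.154).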

How the results depend on the processing

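Counts here include Ltbp2 in cardiomyocytes and endothelial cells, whose difference was built into passing the filter. Of 15 calls of members, 6 held under every one of up to 22 alternatives, namely Ltbp4 in fibroblasts and myeloid cells and Ltbp1, Ltbp2 and Ltbp4 in the whole heart for I/R vs. sham, and Ltbp2 in the whole heart for SBP vs. sham. Alternatives on doublets, marker scores, the largest cluster and the Tnc-led cluster were run for single cell types only. Whole heart calls therefore met fewer alternatives and are not shown to be firmer than those of a cell type. Of 2908 single comparisons of a member with an alternative, 2846 kept their side of the threshold, although 124 of these changed sign with no call and at most 0.25 (log2) on one side or both. In the rest 18 lost a call, 36 gained one and 8 reversed. Reversals of called values were fibroblast Ltbp2 without the Tnc-led cluster, −0.25 for I/R vs. sham and −0.23 for SBP vs. sham, an alternative added after the data were seen. The other reversals, of values not called in either fit, came with the largest cluster alone. They were −0.91 for Tgfb2 and 0.90 for Tgfb3 in cardiomyocytes and 0.39 for Tgfb1 in fibroblasts (I/R vs. sham), −0.51 and −0.77 for Ltbp3 in cardiomyocytes and endothelial cells (SBP vs. I/R), and −0.35 for Ltbp3 in cardiomyocytes (SBP vs. sham). Numbers of members called changed as follows for I/R vs. sham. Cell types from marker scores gave 1 in cardiomyocytes, and the 6 compared samples alone gave 1 in endothelial cells. The largest cluster alone gave 1 each for endothelial cells (3.83% of all genes called), fibroblasts (0.753%) and myeloid cells (1.22%). Fibroblasts without the Tnc-led cluster gave 1 (3.32%). Each of these single calls was Ltbp4. For SBP vs. sham, the 6 compared samples alone gave 1 in cardiomyocytes, 3 in endothelial cells, 4 in myeloid cells and 3 in the whole heart. The largest cluster alone gave 0 for endothelial cells (2.96% of all genes called), for fibroblasts (0.194%) and for myeloid cells (1.08%). Fibroblasts without the Tnc-led cluster gave 0 (0.68%). Shares of all genes called under the other alternatives are not given here, so those counts have no background beside them. A variance trend on the mean level of the types, also added later to the test between cell types, gave 9 calls in place of 2. The share of all genes called under that trend is not given here. The largest cluster holds fewer nuclei, its cardiomyocyte fit had 7 samples, and Ltbp2 was not tested there. Other causes were not tested.

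Leaving out 1 mouse at a time gave 0 to 2 calls in cardiomyocytes, 0 to 3 in endothelial cells, 2 to 3 in fibroblasts, 2 to 4 in myeloid cells and 3 to 4 in the whole heart for I/R vs. sham. The ranges for SBP vs. sham were 0 to 1, 0 to 2, 2 to 2, 0 to 3 and 1 to 3, and those for SBP vs. I/R 0 to 0 throughout. The test between cell types gave 0 to 5. Shares of all genes called with 1 mouse left out are not given here, so these counts have no background beside them. Without I/R mouse 1, Tgfbr2 was also called in the whole heart (0.65, limma adjusted p = 0.0248). Without I/R mouse 3, Ltbp2 was called in cardiomyocytes (1.85, adjusted p = 0.0259). Without I/R mouse 2 or SBP mouse 1, Tgfbr3 was called in myeloid cells (adjusted p = 0.041 and 0.0374).

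With the replicate block, 3 members (Ltbp4, Tgfbr2 and Ltbp1) were called in myeloid cells for SBP vs. sham in place of 1, with no share of all genes given beside them. The labels name no litter or day shared by same-numbered mice, so that block rests on the mouse numbers alone. Depth limits Ltbp2 outside fibroblasts, with 2 to 4 sham UMIs per type.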
